A study of Homo sapiens with 4 samples.

Results

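The HOX genes are the homeobox genes of the HOXA, HOXB, HOXC and HOXD clusters, and their members here were all rows of the deposited tables whose symbol is HOXA, HOXB, HOXC or HOXD followed by a number. They came to 36 of the 13092 genes listed in at least 1 of the tables. RNA was measured in RKO, an established, poorly differentiated human colon carcinoma line, in 1 library from cells labelled as overexpressing HADH-S and 1 library from control cells labelled WT. HADH is a dehydrogenase of mitochondrial fatty acid breakdown, and HADH-S is, by the title of the series, a form found in the nucleus. The study sought genes that respond to HADH-S. The vector, the clone structure of the overexpressing cells and the time after overexpression were not given in the labels. With 1 library per condition there is no replicate check and no test between conditions, so "higher" and "lower" describe these 2 libraries, and fewer expressing cells and less RNA per cell cannot be told apart.

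HOX proteins are homeodomain transcription factors that give cells a positional identity along the body axis. The genes lie in 4 clusters on different chromosomes, and within a cluster the low-numbered genes at the 3' end are active early and anteriorly in the embryo, while the high-numbered genes at the 5' end are active late and posteriorly. Genes with the same number in different clusters are paralogues. HOX proteins bind DNA together with the TALE homeodomain cofactors of the PBX, MEIS and PKNOX families, and Polycomb and MLL complexes keep the clusters silent or active. In the gut, the homeobox factor CDX2 specifies intestinal identity, and adult colon epithelium retains expression of many HOX genes.

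The HADH-S library held 6963608 reads assigned to listed genes and the control library 6773421, and the unit throughout is RPKM, a read count per kilobase of transcript that is scaled to this total. HADH, which checks the labels, was at 54.4 RPKM in the HADH-S library and 26.5 RPKM in the control library (ratio 2.05, 95% counting interval 1.79 to 2.35), the direction of the label. Of 13 fixed epithelial and colon markers, 5 were listed, with KRT18 (93.8 and 91.7 RPKM) and EPCAM (9.57 and 8.20 RPKM) the highest, and summed levels of 116 RPKM in the HADH-S library and 111 RPKM in the control library. CDH1, KRT19, KRT20, CDX1, VIL1, CDH17, LGR5 and HNF4A were listed in neither table and were not evaluated, so most of these defining markers gave no value for RKO. Of the 8 mesenchymal markers, 4 were listed and VIM alone reached a mean of 1 RPKM (13.5 and 13.1 RPKM), and the 1 listed of 5 endothelial markers and the 1 listed of 6 leukocyte markers did not.

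Of the 36 HOX genes, 26 reached an RPKM of 1 with HADH-S and 26 in the control, 25 of them in both libraries. Among all listed genes 79.0% were at that level in the HADH-S library and 78.6% in the control library. The HOX genes held 2432 reads in the HADH-S library and 2236 in the control library, which is 0.0349% and 0.0330% of the reads. The median level of the 27 members with a mean of at least 1 RPKM was below that of all genes. It was 3.73 RPKM in the HADH-S library and 3.32 RPKM in the control library. For all 10331 genes at that mean level it was 12.4 and 12.2 RPKM. HOXB1, HOXC12 and HOXD10, which complete the 39 HOX genes of RefSeq, were not analysed here.

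RKO expressed the HOXA and HOXB clusters most. The summed level of the 11 HOXA members was 72.2 RPKM in the HADH-S library and 74.8 RPKM in the control library, and that of the 9 HOXB members was 65.9 and 55.1 RPKM. The 8 HOXC members added up to 21.1 and 19.2 RPKM, and the 8 HOXD members to 8.39 and 9.30 RPKM. HOXA and HOXB together thus outweighed HOXC and HOXD in both libraries. All 9 HOXB members, 8 of the 11 HOXA members and 3 (control) or 4 (HADH-S) of the 8 HOXD members reached 1 RPKM. For HOXC the count was 6 of 8 in the control and 5 with HADH-S, where HOXC4 was below the limit.

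**Figure D1:**
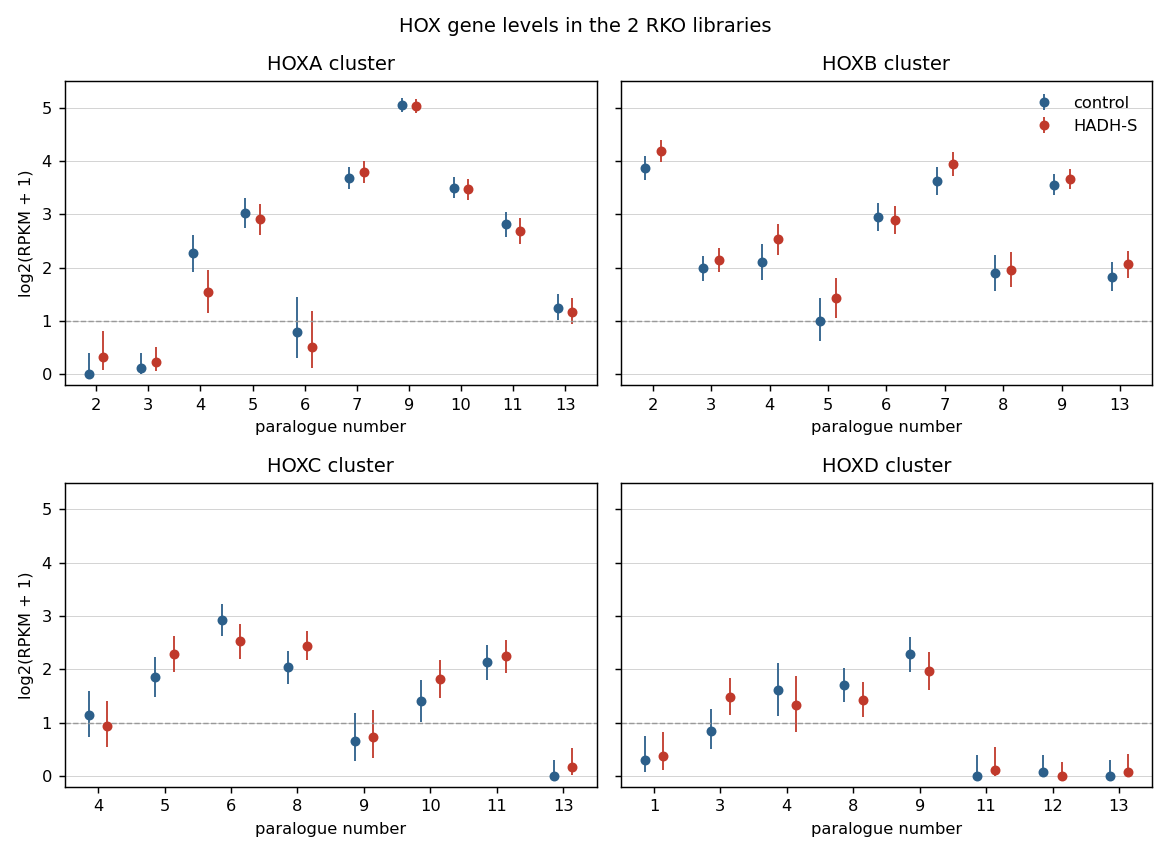
Levels of HOX genes as log2(RPKM + 1), by cluster and paralogue number, in the control (blue) and the HADH-S (red) library; bars are exact 95% Poisson intervals of the reads and the dashed line marks 1 RPKM. HOXA9 stands highest in both libraries, and HOXA4 and HOXD3 show the widest gaps between the libraries.

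A single gene, HOXA9, led the family. HOXA9, a posterior-type factor best known for its role in blood progenitors and leukaemia (ENSG00000078399, chromosome 7, bases 27162438 to 27165537 of GRCh38.p14), reached 31.9 RPKM in the HADH-S library and 32.0 RPKM in the control library, from 458 and 447 reads. That level exceeded 81.3% of the genes listed with HADH-S and 81.5% of those listed in the control. The next 5 genes were the same in both libraries. HOXB2, a hindbrain patterning gene, was at 17.3 RPKM in the HADH-S library and 13.6 RPKM in the control library. HOXB7, a trunk-level gene, was at 14.4 and 11.4 RPKM. Its paralogue HOXA7 was at 12.9 and 11.9 RPKM, so the group of paralogue number 7 was carried by HOXA and HOXB at similar levels. HOXB9 was at 11.7 and 10.8 RPKM, and HOXA10, which patterns the reproductive tract, at 10.1 and 10.3 RPKM. Among these 5 genes, the exact Poisson intervals of neighbours in order overlapped in both libraries, so neighbouring ranks within the 5 were not resolved. HOXA9 lay clear of them, with intervals of 29.0 to 34.9 RPKM and 29.1 to 35.1 RPKM.

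Levels did not follow gene number evenly along a cluster. In HOXA, the anterior genes HOXA2 and HOXA3, which pattern pharyngeal arches, were nearly silent (3 and 4 reads with HADH-S, against 0 and 2). HOXA5, a gene of gut and lung patterning, was at 6.54 and 7.16 RPKM, while its neighbour HOXA6 was at 0.436 and 0.746 RPKM, from 3 and 5 reads. HOXA7 and HOXA9 followed at high levels. Toward the 5' end the level declined from HOXA9 over HOXA10 and HOXA11 (5.49 and 6.03 RPKM) to HOXA13 (1.26 and 1.38 RPKM), a gene of the terminal hindgut and limb. In HOXB the highest gene was the anterior HOXB2, followed by the central HOXB7, the posterior HOXB9 and the central HOXB6 (6.45 and 6.78 RPKM). HOXB13, which marks prostate, rectum and distal colon, was at 3.19 and 2.55 RPKM and exceeded its paralogues HOXA13, HOXC13 and HOXD13 in both libraries, with exact Poisson intervals that did not overlap theirs.

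In HOXC, the central genes HOXC6 (4.78 and 6.62 RPKM), HOXC8 (4.46 and 3.12 RPKM) and HOXC5 (3.90 and 2.62 RPKM), all active in the embryonic trunk, were the highest of the cluster with HADH-S, and HOXC6, HOXC11 (3.73 and 3.40 RPKM) and HOXC8 in the control. HOXC10, a gene of lumbar motor neurons, was at 2.54 and 1.64 RPKM. HOXC9 was below 1 RPKM (0.668 and 0.589 RPKM), and HOXC13, a regulator of hair keratins, had 2 reads in the HADH-S library and 0 in the control library. In HOXD, HOXD9 was at 2.92 and 3.87 RPKM, HOXD8 at 1.70 and 2.26 RPKM and HOXD4 at 1.52 and 2.08 RPKM, and the anterior HOXD3, at 1.81 and 0.805 RPKM, passed 1 RPKM in the HADH-S library. The posterior limb genes HOXD11, HOXD12 and HOXD13 had at most 1 read in a library, and HOXD1 had 4 and 3 reads. The 9 members that did not reach a mean of 1 RPKM (HOXA2, HOXA3, HOXA6, HOXC9, HOXC13, HOXD1, HOXD11, HOXD12 and HOXD13) had at most 7 reads each in a library, and no difference between libraries was detectable for them at this depth. A floor of 3 reads corresponds to between 0.0859 RPKM for HOXA13, the longest transcript, and 0.436 RPKM for HOXA6, the shortest, with HADH-S.

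**Figure D2:**
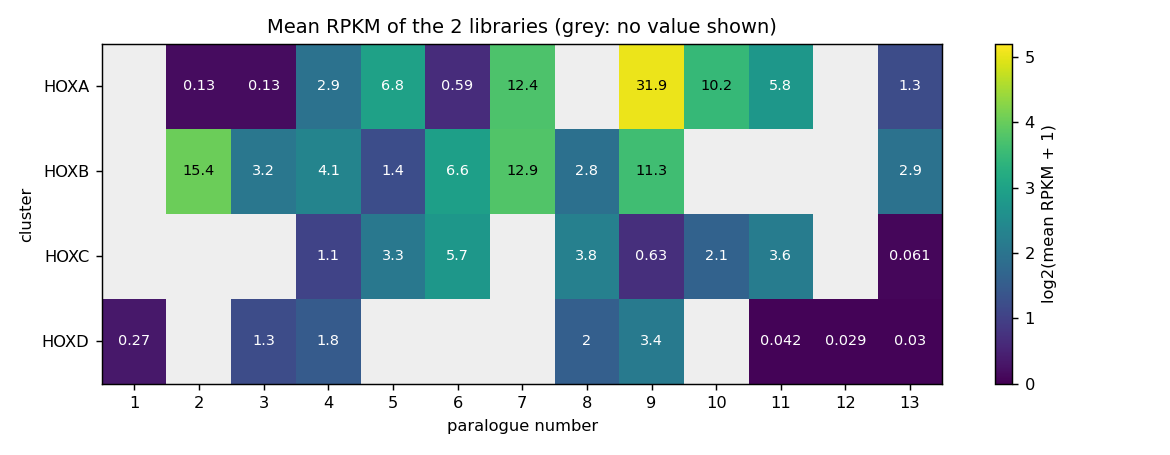
Mean RPKM of both libraries for HOX genes, by cluster (rows) and paralogue number (columns); colour shows log2(mean RPKM + 1) and grey marks combinations with no value shown. The highest values sit at paralogue numbers 7, 9 and 10 of HOXA and at 2, 7 and 9 of HOXB. The lowest are at the posterior end of HOXD, with further low values at HOXA2, HOXA3 and HOXC13.

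Summed by paralogue number, the 4 genes numbered 9 were the largest group, at 47.2 RPKM in either library, or 28.1% of all HOX RPKM with HADH-S and 29.8% in the control. The 14 posterior genes numbered 9 to 13 held 44.0% and 45.9% of HOX RPKM, the 15 central genes numbered 4 to 8 held 41.4% and 42.1%, and the 7 anterior genes numbered 1 to 3 held 14.6% and 12.0%. Most of the anterior share came from HOXB2. These shares compare levels per transcript length and depend on the single transcript that the authors' table assigns to each gene.

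The promoters of 4 members are shown as the RefSeq window of 250 bases before and 50 after the start site in GRCh38.p14, to set the highest gene beside the members whose levels differed most and beside a neighbour of lower CpG content. Capitals mark CpG dinucleotides, and each sequence runs 5' to 3' on the strand of the gene. HOXA9 lies at chr7:27165488-27165787 and HOXA4 at chr7:27130708-27131007, both on the minus strand, and HOXD3 at chr2:176157057-176157356 and HOXD4 at chr2:176151300-176151599, both on the plus strand.
HOXA9: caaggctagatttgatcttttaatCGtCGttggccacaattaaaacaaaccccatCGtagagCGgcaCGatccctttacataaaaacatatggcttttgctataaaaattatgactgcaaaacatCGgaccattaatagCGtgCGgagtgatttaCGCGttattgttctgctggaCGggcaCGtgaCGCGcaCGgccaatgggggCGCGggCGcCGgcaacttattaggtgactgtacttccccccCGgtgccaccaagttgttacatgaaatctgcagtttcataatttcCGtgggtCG
HOXA4: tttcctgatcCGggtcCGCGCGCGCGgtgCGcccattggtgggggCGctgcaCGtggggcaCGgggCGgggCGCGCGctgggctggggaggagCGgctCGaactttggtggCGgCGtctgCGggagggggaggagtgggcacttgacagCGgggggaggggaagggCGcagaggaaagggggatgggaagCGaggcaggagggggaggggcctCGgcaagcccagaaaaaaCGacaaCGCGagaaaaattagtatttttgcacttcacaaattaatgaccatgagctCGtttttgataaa
HOXD3: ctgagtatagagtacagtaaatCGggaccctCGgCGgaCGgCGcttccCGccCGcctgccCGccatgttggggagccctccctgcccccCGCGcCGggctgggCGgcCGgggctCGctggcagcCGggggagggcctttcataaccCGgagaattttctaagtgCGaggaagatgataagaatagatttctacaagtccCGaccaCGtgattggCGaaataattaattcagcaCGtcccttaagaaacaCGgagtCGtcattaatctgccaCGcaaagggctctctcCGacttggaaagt
HOXD4: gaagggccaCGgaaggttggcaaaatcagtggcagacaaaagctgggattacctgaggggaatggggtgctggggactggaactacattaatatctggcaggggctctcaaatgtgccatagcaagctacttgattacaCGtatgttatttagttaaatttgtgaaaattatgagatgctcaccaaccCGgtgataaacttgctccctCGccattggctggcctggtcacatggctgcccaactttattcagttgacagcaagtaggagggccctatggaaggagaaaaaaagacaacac

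The windows of HOXA9, HOXA4 and HOXD3 held 22, 27 and 25 CpG dinucleotides, and that of HOXD4 held 4. Of the 36 members, 18 had a window in the table, with 24 different windows in all, 7 of them for HOXA3 and 1 shared by HOXC4 and HOXC5. No HOXB member had a window and HOXC had only the shared one, so the windows describe mostly HOXA and HOXD. The median of the 24 windows was 23 CpG dinucleotides, against 14 over all 34943 windows, at a median GC content of 57.3% against 58.7%. Members with almost no reads had such windows as well, with 36 CpG dinucleotides for HOXD1 and 24 for HOXD13. The letters TTTATG, a site bound by CDX factors, occurred on either strand in 3 of the 24 windows (HOXA3, HOXA9 and HOXD8) and in 10.6% of all windows. A PBX-HOX composite site, TGATTNAT, occurred in 2 (HOXA2 and HOXD11) and in 2.82% of all windows. No HOX window held more than 1 kind of these motifs, and a match or its absence describes only the letters of the window.

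HOX gene levels with HADH-S were close to those in the control. The log2 value used from here on is the log2 ratio of (RPKM + 1) in the HADH-S library to (RPKM + 1) in the control library, which understates the change of low genes. Of the 27 members with a mean of at least 1 RPKM, 0 were higher and 0 were lower by at least 1 on this scale (2-fold), while 0.300% of all 10331 genes were higher and 0.0484% lower. At 1.5-fold, 1 member was higher (HOXD3) and 1 lower (HOXA4), beside 1.47% and 0.436% of all genes. The values of the 27 members ran from -0.73 to 0.64 with a median of 0.07, 14 above 0 and 13 below, and the median of all 10331 genes was 0.01. Of the genes with 25 to 905 reads over both libraries, the range of these members, 95% lay between -0.39 and 0.55, with a median of 0.03. A 95% counting interval of the ratio, taken from the reads, lay above 1 for 2 members and below 1 for 1, and 24 intervals included 1. Over all 10331 genes 13.8% of intervals lay above 1 and 11.6% below. Over the 6712 genes with 25 to 905 reads, 12.4% and 7.46% did. The intervals cover counting error only. With 1 library per condition, other variation between libraries and a response to HADH-S cannot be told apart. The members' count is not above these shares.

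**Figure D3:**
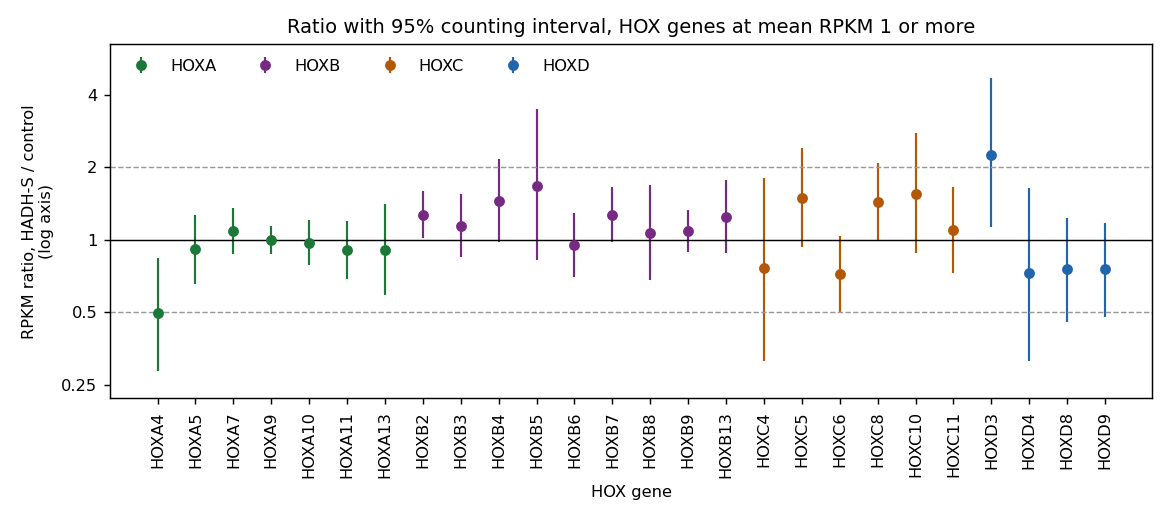
RPKM ratio of HADH-S to control with exact 95% counting intervals, on a log axis, for HOX genes with a mean of at least 1 RPKM, coloured by cluster; dashed lines mark ratios of 2 and 0.5. The interval lies below 1 for HOXA4 and above 1 for HOXB2 and HOXD3.

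HOXA4 had the largest decrease of the family. This anterior-to-central gene (ENSG00000197576, chromosome 7 from 27128525 to 27130757) was at 1.91 RPKM in the HADH-S library and 3.84 RPKM in the control library, with 23 reads against 45, a ratio of 0.497 (interval 0.287 to 0.839) and a log2 value of -0.73. Of its neighbours, HOXA5, the next gene toward the 5' end, had a ratio of 0.913 (0.658 to 1.26). HOXA3, the next lower-numbered gene, had too few reads to compare. By RefSeq bounds HOXA4 lies within HOXA3 and overlaps the antisense gene HOXA-AS2, so reads of a shared stretch could have been assigned to either. Among its paralogues, HOXB4 showed 4.81 against 3.32 RPKM (ratio 1.45, interval 0.978 to 2.16), HOXC4 at 0.925 against 1.21 RPKM (ratio 0.764, interval 0.314 to 1.81) and HOXD4 at 1.52 against 2.08 RPKM (ratio 0.730, interval 0.315 to 1.64). The interval of HOXA4 overlapped those of HOXC4 and HOXD4 and not that of HOXB4, and the differences between ratios were not tested.

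HOXD3 had the largest increase. HOXD3, a gene of neck-level patterning (ENSG00000128652, chromosome 2 from 176152529 to 176173098), was at 1.81 RPKM in the HADH-S library and 0.805 RPKM in the control library, from 30 and 13 reads, with a ratio of 2.24 (1.14 to 4.69) and a log2 value of 0.64. Its RefSeq bounds overlap those of HOXD4, which had a ratio below 1, so reads of a shared stretch could have been assigned to either. The HOXD3 promoter window shown above lies inside these bounds and past the end of HOXD4. Which start the counted transcript uses was not determined. HOXB2 (ENSG00000173917, chromosome 17 from 48542655 to 48545109) differed by less, with 188 against 144 reads, a ratio of 1.27 (1.02 to 1.59) and a log2 value of 0.32. The best covered member, HOXA9, had a ratio of 0.997 (0.873 to 1.14).

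The direction of the differences is given by cluster. In HOXB, 8 of the 9 members had a log2 value above 0, beside 52.2% of all genes and 55.2% of those with 25 to 905 reads, and the median was 0.24. HOXB5 (1.69 against 1.01 RPKM, ratio 1.67, interval 0.828 to 3.49) and HOXB4 had the largest ratios, HOXB7 had one of 1.27 (0.977 to 1.65), HOXB13 one of 1.25 (0.879 to 1.78), and HOXB6 alone was below 1 (0.951, interval 0.701 to 1.29). Summed over the cluster, HOXB had 936 reads in the HADH-S library and 772 in the control library, a ratio per library size of 1.18 (counting interval 1.07 to 1.30), and without HOXB2 the ratio was 1.16 (1.04 to 1.29). In HOXA, 7 of the 8 members with a mean of at least 1 RPKM were below 0, with a median of -0.06, and the ratio summed over the whole cluster was 0.969 (0.890 to 1.05). Of those 8, the HOXA members other than HOXA4 had log2 values between -0.12 and 0.11. In HOXC, 4 of 6 were above 0, with ratios of 1.49 (0.935 to 2.40) for HOXC5, 1.43 (0.989 to 2.08) for HOXC8 and 1.55 (0.883 to 2.77) for HOXC10, while HOXC6 had one of 0.723 (0.501 to 1.04). In HOXD, 3 of 4 were below 0, where HOXD8 and HOXD9 both had a ratio of 0.754 (0.456 to 1.24 and 0.480 to 1.18). With 1 library per condition a difference between clusters cannot be tested, and genes of a cluster are not independent of each other.

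**Figure D4:**
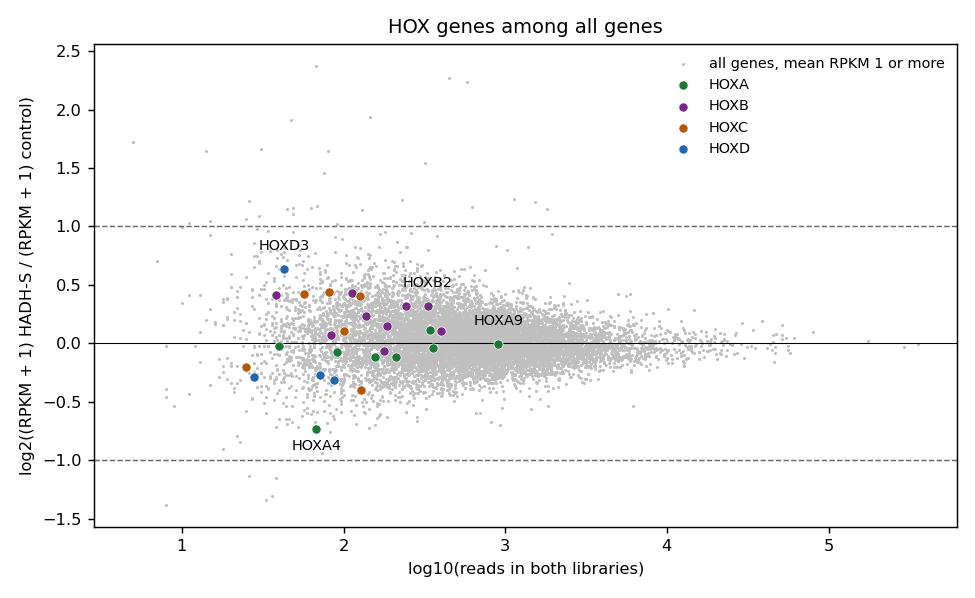
The log2 value of each gene with a mean of at least 1 RPKM against log10 of its reads in both libraries, with the HOX genes coloured by cluster over all 10331 genes in grey; dashed lines mark 2-fold. All 27 HOX genes lie between the dashed lines, HOXD3 and HOXA4 nearest to them.

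Overlapping genes limit single values. By RefSeq bounds, 11 members overlap another HOX gene and 15 overlap an antisense or read-through gene. HOXC4, HOXC5 and HOXC6 share the start at 54016888 on chromosome 12, and HOXC5 and HOXC6 differed in opposite directions, so their separate values are uncertain. HOXA9 and HOXA10 overlap the read-through gene HOXA10-HOXA9, and HOXB2 overlaps HOXB-AS1. The strand setting of the authors' counting is not given in the labels or file headers, so sense and antisense reads cannot be told apart.

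None of the listed cofactors and regulators of HOX genes at a mean of at least 1 RPKM differed by 2-fold between the libraries. Of 11 TALE genes, 7 reached a mean of 1 RPKM. The HOX partners PBX3 (26.3 and 26.8 RPKM, ratio 0.982, interval 0.869 to 1.11) and PBX2 (19.2 and 21.5 RPKM, ratio 0.892, interval 0.781 to 1.02) were the most abundant. TGIF1, a TALE repressor of the TGF-beta pathway, showed 13.4 against 9.25 RPKM (ratio 1.45, interval 1.15 to 1.84), the 1 TALE gene of the 7 with an interval above 1, beside 13.8% of all genes. The median log2 value of the 7 was -0.07, and 0 were past 2-fold. MEIS1 and PKNOX2 were listed in neither table. Among the CDX and other ParaHox genes, the intestinal factor CDX2 was at 4.37 and 3.60 RPKM (ratio 1.22, interval 0.904 to 1.64) and PDX1 at 1.32 and 1.25 RPKM, while CDX1, CDX4, GSX1 and GSX2 were listed in neither table, nor were EVX1 and EVX2, which lie beside the HOXA and HOXD clusters.

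For the chromatin regulators of the clusters, the background is that 13.8% of all 10331 genes had an interval above 1 and 11.6% one below. All 11 genes of Polycomb repressive complex 2, which methylates histones of silent HOX genes, reached 1 RPKM, with a median log2 value of -0.05. RBBP7 was at 73.9 and 76.6 RPKM, the catalytic subunit EZH2 at 42.2 and 44.3 RPKM and SUZ12 at 41.7 and 43.4 RPKM. Of the 11, 1 interval lay above 1 and 2 lay below. Of 20 genes of Polycomb repressive complex 1, 19 reached 1 RPKM, with a median of -0.02, 1 interval above 1 and 2 below, and RYBP was listed in neither table. PHC2 was at 49.5 and 47.5 RPKM, BMI1 at 37.1 and 39.7 RPKM and RING1 at 20.6 and 20.1 RPKM. The 13 genes of MLL complexes and histone demethylases, which oppose Polycomb, had a median of 0.02, 1 interval above 1 and 2 below. PSIP1 was at 63.0 and 68.0 RPKM, DPY30 at 57.8 and 53.0 RPKM and WDR5 at 39.1 and 37.9 RPKM. None of these genes was past 2-fold in either direction.

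Of 15 genes of retinoic acid signalling, an inducer of 3' HOX genes in the embryo, 6 reached 1 RPKM, with a median log2 value of 0.27, 3 intervals above 1 and 1 below, beside 13.8% and 11.6% over all genes. The retinoic acid binding protein CRABP2 showed 31.7 against 20.4 RPKM (ratio 1.55, interval 1.25 to 1.93), and the receptors RXRA and RXRB were at 10.3 against 8.03 RPKM (ratio 1.29, interval 1.10 to 1.499) and 9.28 against 6.74 RPKM (ratio 1.38, interval 1.09 to 1.74). The 1 interval below 1 was that of the retinoic acid receptor RARG, at 4.58 against 6.43 RPKM (ratio 0.712, interval 0.539 to 0.938). None of the 6 was past 2-fold. The 7 anterior HOX genes, those numbered 1 to 3, had 349 reads in the HADH-S library and 267 in the control library, a ratio of 1.27 (1.08 to 1.497), of which HOXB2 held 188 and 144 reads. A relation between these values was not tested.

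**Figure D5:**
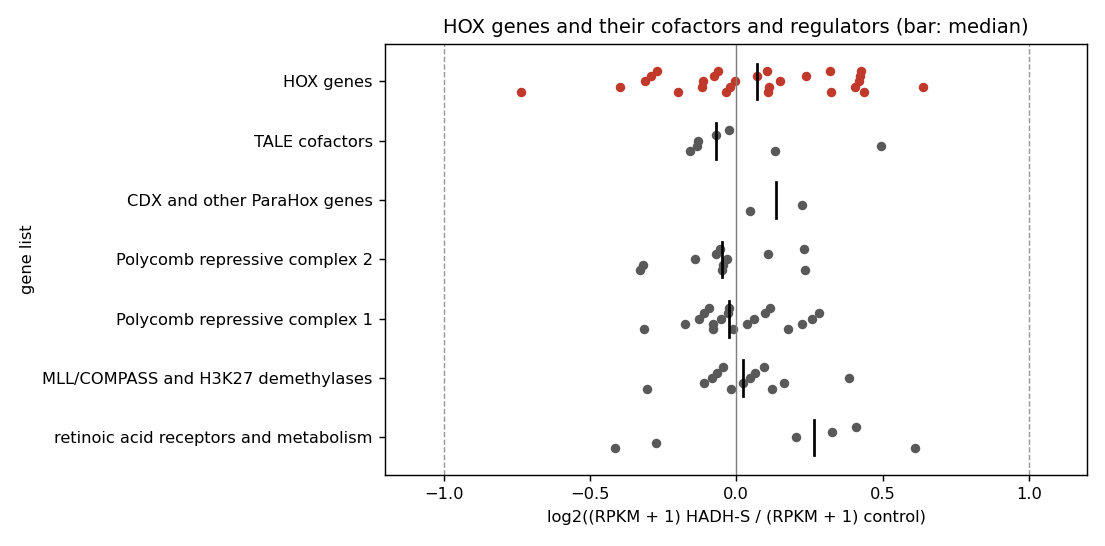
The log2 values of the 27 HOX genes (red) and of the genes of 6 lists of cofactors and regulators (grey) at a mean of at least 1 RPKM; vertical bars are medians and dashed lines mark 2-fold. No gene shown passes 2-fold, and the medians lie between -0.07 for the TALE cofactors and 0.27 for the retinoic acid genes.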

How the data were processed

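RNA was measured in 2 RKO libraries, HADH-S overexpression and control, and a ChIP library with its input were not analysed here. The authors deposited 1 RPKM value per gene and library, per the file headers. Each row names 1 transcript and its length. The submitters' processing notes, shared by all 4 samples, name fastp 0.23.2, SAMtools 1.9, MACS2 1.4.2, ChIPseeker and GRCh38. The RNA aligner, counter, annotation and strand setting are named neither in the labels nor in the files.

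RPKM times transcript length was a whole multiple of 1 step per library for 100% of values (tolerance 0.01 reads), and the recovered reads added up to the library size the step implies. A gene listed in 1 table was taken as having 0 reads in the other, and a gene in neither was not evaluated. Ratios carry an exact conditional (Clopper-Pearson) 95% interval and levels an exact Poisson interval. Both cover counting error only, since reads lacking molecular identifiers can be copies of 1 molecule. The pseudocount was 1 RPKM and the filter a mean of at least 1 RPKM. Python 3.11.15 with scipy 1.17.1 was used, and the steps were tested on simulated reads.

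All members enter the counts, and 1 member and 1 marker are not reported here by name. Of each other list, the 3 genes highest in mean RPKM and any past 2-fold were named, and genes in neither table are named for some lists. RARG is named as well, as the retinoic acid gene with an interval below 1. The members and lists were chosen with earlier results of these data known. Alternatives were other pseudocounts, scalings, filters, folds and expression limits. Coordinates and promoter windows are from RefSeq, GRCh38.p14.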

Additional observations from a re-analysis of the deposited data

How the results depend on the processing

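No paired analysis was possible because each condition has 1 library, and for the same reason no library could be left out. Of 274 alternative values, 264 stayed within the interval of the main value or kept their count within 1.5 times, 10 moved and 0 reversed. That interval was one of counting error, or for the median one over the members. Only members whose counting interval excluded 1 could be called reversed. Pseudocounts cannot turn the sign of a log2 value, and the rescalings multiplied the HADH-S values by only 0.983 to 0.992. The absence of a reversal is therefore no support. At a limit of 5 RPKM, 9 members with HADH-S and 10 in the control counted as expressed. With a pseudocount of 0.1, 1 member was higher by 2-fold (HOXD3, log2 value 1.08), and at 1.5-fold 1 was higher and 1 lower. The number of intervals above 1 was 1 after rescaling to equal RPKM totals, where the interval of HOXB2 began at 0.999, and 1 at a mean of at least 5 RPKM, where the number below 1 was 0 because HOXA4 is not among those genes. The median log2 value of the members stayed between -0.02 (mean of at least 5 RPKM) and 0.09 (pseudocount of 0.1). HOXB kept 8 of 9 members above 0 under the 3 rescalings. Most members had fewer than 100 reads in a library, which limits what ratios can show.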

Other observations

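Genes of other families within 500 kb of the clusters were counted as well, in a window chosen after the values were seen. A relation to the direction of the HOXB members was not tested. Around HOXB, 8 genes had a mean of at least 1 RPKM, 4 with a log2 value above 0 and 4 below, with a median of -0.03, and of their counting intervals 0 lay above 1 and 2 below. The 2 intervals below 1 were those of CALCOCO2 (ratio 0.839, interval 0.711 to 0.988) and CBX1 (ratio 0.905, interval 0.823 to 0.995). The autophagy receptor gene CALCOCO2 was at 20.6 RPKM in the HADH-S library and 24.6 RPKM in the control library. The ATP synthase gene ATP5MC1 was at 112 and 123 RPKM, with an interval that included 1 (0.806 to 1.03). PRAC1 and PRAC2, which lie between HOXB9 and HOXB13, had 0 reads with HADH-S and 1 and 4 reads in the control. Around HOXC, 8 of 13 genes were above 0 with a median of 0.08, and 2 intervals lay above 1. HOXA had 2 such neighbours and HOXD had 2, MTX2 (28.5 and 26.6 RPKM) and LNPK (11.0 and 13.1 RPKM) among the latter. Of a separate list of 16 symbols of neighbouring genes, 11 reached a mean of 1 RPKM. Their median log2 value was -0.01, with 1 interval above 1 and 1 below. The most abundant were TAX1BP1 (41.7 and 42.6 RPKM), MTX2 and SNX10 (27.04 and 25.4 RPKM).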
